A study of Mus musculus with 151 samples.

Results

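Single oocytes of 39-week-old mice conceived by IVF were compared with single oocytes of naturally conceived mice of the same age, across all genes of the count table. The members were chosen by their labels alone, and they comprised 10 IVF and 9 Natural oocytes, 19 of the 151 samples of the series. The design text of the series lists 10 oocytes in each group, and the remaining Natural oocyte was not analysed here. Natural females came from CF-1 dams mated to B6/SJL males, and their embryos developed in the dam without transfer. For the IVF females, CF-1 eggs were fertilised in vitro with B6/SJL sperm, cultured to the blastocyst stage and transferred into pseudopregnant CF-1 recipients. Pups of both groups were delivered by caesarean section, which the study's methods place on a later embryonic day for IVF than for Natural. The pups were then fostered by CF-1 dams. Both groups therefore shared the cross, the fostering and, as adults, a superovulation with eCG and hCG before the oocytes were freed of cumulus cells. CF-1 is an outbred stock, so females of the same group do not share one genome. IVF as compared here includes superovulation of the egg donors, fertilisation, culture, transfer and the later delivery day together, and these cannot be told apart.

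An ovulated oocyte is transcriptionally silent. It carries a store of mRNA that was made while it grew, and this store is translated, protected or degraded during meiosis and the first divisions of the embryo. Maternal mRNA levels therefore record transcription during growth together with mRNA decay during maturation. Mitochondria are inherited from this cell, and their DNA encodes 13 proteins of the respiratory chain.

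Each library was made from 1 oocyte, and no label names the female that gave it. Several oocytes of a group may come from the same female or litter, and a group was therefore treated as 1 sample. No test was run between the groups at 39 weeks, and differences between the groups cannot be told apart from differences between donors or litters. Levels are given as CPM, the read count of a gene scaled to a common library total by TMM, ratios as the log2 ratio of the mean CPM of IVF over that of Natural after adding 0.5 CPM to each mean, and errors as the SD over oocytes. Total counts per oocyte ranged from 5959480 to 18374296 in Natural (n = 9) and from 2820748 to 31126357 in IVF (n = 10).

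The 4 genes below are shown because the results turn on them. Kcnk18 and Tox3 were near 0 in Natural oocytes, Cdc5l was near 0 in IVF oocytes, and Bcat2 was lower in IVF oocytes at 39 weeks and in most 12-week IVF oocytes. Their RefSeq promoter windows (build GRCm38.p6, from 250 bases before to 50 bases after a transcription start) are printed 5′ to 3′ along the strand of the gene, with every CG dinucleotide in capitals. Kcnk18 lies at chr19:59219398-59219697 on the plus strand, Tox3 at chr8:90348203-90348502 on the minus strand, Cdc5l at chr17:45433658-45433957 on the minus strand, and the upstream of the 2 Bcat2 windows at chr7:45569903-45570202 on the plus strand. For Tox3 and Bcat2 this start lies inside the annotated span of the gene.
Kcnk18: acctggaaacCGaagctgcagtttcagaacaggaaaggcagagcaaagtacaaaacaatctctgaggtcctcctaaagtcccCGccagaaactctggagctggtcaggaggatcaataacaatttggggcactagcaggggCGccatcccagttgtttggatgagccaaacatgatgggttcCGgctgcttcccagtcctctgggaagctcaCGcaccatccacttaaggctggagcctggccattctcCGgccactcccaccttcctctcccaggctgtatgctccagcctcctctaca
Tox3: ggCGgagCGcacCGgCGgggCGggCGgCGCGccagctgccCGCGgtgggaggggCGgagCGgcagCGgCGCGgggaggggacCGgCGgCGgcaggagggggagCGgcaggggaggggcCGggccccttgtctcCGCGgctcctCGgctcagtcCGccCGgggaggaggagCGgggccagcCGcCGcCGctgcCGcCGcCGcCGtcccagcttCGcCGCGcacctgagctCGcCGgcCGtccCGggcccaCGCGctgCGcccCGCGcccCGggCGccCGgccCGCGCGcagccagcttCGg
Cdc5l: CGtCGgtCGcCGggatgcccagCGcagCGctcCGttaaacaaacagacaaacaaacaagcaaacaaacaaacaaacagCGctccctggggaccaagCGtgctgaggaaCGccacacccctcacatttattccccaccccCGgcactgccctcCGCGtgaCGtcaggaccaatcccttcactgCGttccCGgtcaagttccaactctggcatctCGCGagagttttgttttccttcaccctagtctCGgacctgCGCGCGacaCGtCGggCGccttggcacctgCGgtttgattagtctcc
Bcat2: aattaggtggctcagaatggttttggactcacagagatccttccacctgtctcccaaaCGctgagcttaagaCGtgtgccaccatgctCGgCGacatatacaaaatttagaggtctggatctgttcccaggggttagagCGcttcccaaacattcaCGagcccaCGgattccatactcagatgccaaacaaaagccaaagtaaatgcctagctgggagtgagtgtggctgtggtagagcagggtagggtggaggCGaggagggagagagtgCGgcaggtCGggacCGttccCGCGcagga
CG, which reads the same on both strands, occurred 6 times in the Kcnk18 window, 52 times in that of Tox3, 26 times in that of Cdc5l and 13 times in that of Bcat2. The median over all 32851 RefSeq promoter windows of the same length was 7, and 94.6% of them held at least 1. Of the 4 windows, that of Kcnk18 alone lay below this median.

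The labelled cell type was checked against oocyte genes. Zp3 encodes a protein of the zona pellucida, the coat of the egg, and Gdf9 and Bmp15 encode growth factors that the oocyte secretes to its cumulus cells. Gdf9 stood at 14114 to 31992 CPM in IVF oocytes (median 22644), and Bmp15 at 1984 to 7727 CPM (median 4518). In Natural oocytes Gdf9 ranged from 386 to 33317 CPM (median 16816) and Bmp15 from 1769 to 10156 CPM (median 5007). Zp3 spanned 94.9 to 289 CPM in IVF (median 189) and 2.86 to 222 CPM in Natural (median 118). All 11 oocyte markers passed the expression filter, and none differed 2-fold between the groups. Over all genes kept, 3.74% were 2-fold higher in IVF and 7.03% were 2-fold lower. The median log2 ratio of the 11 markers was 0.16, and −0.15 without Natural oocytes 6 and 9, which are described below. Of 14 cumulus and granulosa cell markers, 6 passed the filter, Amh and Foxl2 had 0 counts in every oocyte, and the summed level of the list was 26.2 to 149 CPM in Natural and 40.7 to 191 CPM in IVF. Cyp19a1, the aromatase of granulosa cells, was at 6.07 to 70.0 CPM in Natural and 34.9 to 102 CPM in IVF. The 5 erythroid markers summed to between 3.05 and 31425 CPM in IVF and between 116 and 22130 CPM in Natural, so that blood transcripts varied widely within both groups. Their median sum was lower in IVF, at 181 CPM against 1944 CPM in Natural. Summed levels of the other lists were lower, with 0 to 150 CPM in Natural and 1.27 to 29.4 CPM in IVF for immune cells, 0.865 to 236 and 0.121 to 262 CPM for steroidogenic cells, 0 to 15.7 and 0.849 to 24.0 CPM for oviduct epithelium and 21.5 to 63.2 and 29.0 to 123 CPM for endothelium. The part of other cells in the differences described here was not tested.

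Natural oocytes 6 and 9 stood apart from all others. Gdf9 was at 386 CPM in oocyte 6 and at 643 CPM in oocyte 9, whereas the other 7 Natural oocytes held at least 11029 CPM. Mos, the kinase that keeps the egg arrested in metaphase II, was at 1.29 and 11.1 CPM in oocytes 6 and 9 and at 740 CPM or more in each IVF oocyte. Zar1, which binds and stores maternal mRNAs, was at 15.5 and 0.963 CPM in these oocytes, against 1302 to 5692 CPM in the remaining Natural oocytes. Dppa3 stayed within the range of the other oocytes, at 3630 and 3087 CPM. The median correlation of the log2 levels of oocytes 6 and 9 with the other Natural oocytes was 0.705 across genes, and it was 0.893 among those 7. Results that changed when these 2 oocytes were left out are given both ways. Natural oocyte 4 and IVF oocyte 7 had the lowest totals of their groups, 5959480 and 2820748 counts, and yet the most detected genes, 18228 and 23116, against 10902 to 15298 in the rest. After thinning every oocyte to 2820748 counts they still had the most, 17316 and 23116 genes, against at most 13434 elsewhere.

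**Figure D1:**
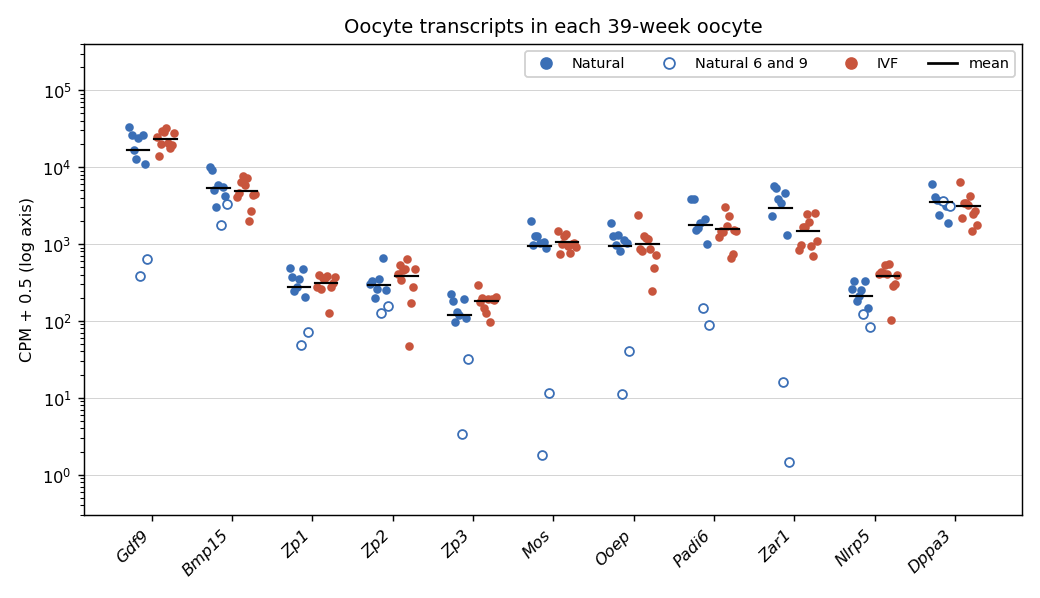
CPM plus 0.5 (log axis) of 11 oocyte transcripts in each 39-week oocyte. Points are oocytes (9 Natural, 10 IVF), open circles are Natural oocytes 6 and 9, and black bars are group means. Oocytes 6 and 9 lie below the rest for Gdf9, Mos, Ooep, Padi6 and Zar1, and within the range of the rest for Dppa3.

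Across the 10940 genes that passed the expression filter, 409 were at least 2-fold higher in IVF (3.74%) and 769 at least 2-fold lower (7.03%). Without Natural oocytes 6 and 9 the numbers were 395 higher (3.41%) and 519 lower (4.48%) of 11577 genes, and 245 of the 409 and 345 of the 769 remained past 2-fold. The excess of lower over higher genes was thus smaller without these 2 oocytes. A smaller group of the genes past 2-fold did not overlap at all. For 22 of them every IVF oocyte was higher than every Natural oocyte (0.201% of all genes kept), and for 23 every IVF oocyte was lower (0.21%). Leaving out Natural oocytes 6 and 9 gave 32 such genes higher (0.276%) and 42 lower (0.363%), and these included 19 of the 22 and 21 of the 23. Requiring at least 10 CPM in the higher group and the same order in at least 90% of the pairs of a Natural and an IVF oocyte left 87 genes higher (0.795%) and 79 lower (0.722%). The 12 of each with the largest ratios are described next.

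Among the genes higher in IVF, Tox3, which encodes an HMG-box nuclear protein, was close to absent from Natural oocytes. It had 0 counts in 7 of them, with a highest value of 0.283 CPM, whereas IVF oocytes held 11.2 to 36.8 CPM (median 17.4). Summed over oocytes these were 3 counts in Natural and 4200 in IVF, a ratio of 870 with a 95% interval of 298 to 4221 that covers counting error only. Kcnk18 (TRESK), a background potassium channel, had 2 counts over all Natural oocytes, both in 1 oocyte. In IVF oocytes it ranged from 6.74 to 45.9 CPM (median 17.3), with 3446 counts in all. The log2 ratios of Tox3 and Kcnk18 were 5.34 and 5.32. Neither gene overlapped between the groups.

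Agbl2, a carboxypeptidase that trims tubulin tails, was at 0 to 3.27 CPM in Natural oocytes (median 0) and at 31.6 to 61.3 CPM in IVF oocytes (median 41.4). Slc14a1, a urea transporter, was at 0 to 0.696 CPM in Natural (median 0) and at 4.03 to 21.2 CPM in IVF (median 15.2). Lzts1, a leucine-zipper protein linked to the cell cycle, ranged from 0 to 4.27 CPM in Natural (median 1.95) and from 20.6 to 147 CPM in IVF (median 29.1). For these 3 genes, too, all IVF oocytes lay above all Natural oocytes. The IVF value of 147 CPM for Lzts1 belonged to oocyte 7, and without that oocyte the log2 ratio was 3.59 instead of 4.05. Rln3, a relaxin-family peptide, was at 0 to 2.02 CPM in Natural (median 0.649) and at 7.52 to 21.5 CPM in IVF (median 14.4).

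Arid5b, an ARID-domain cofactor of transcription, reached 36.8 to 142 CPM in 9 IVF oocytes but only 4.99 CPM in IVF oocyte 1. In Natural oocytes it lay between 0 and 24.6 CPM (median 2.12), so the groups overlapped through that single IVF oocyte. Ptpro, a receptor tyrosine phosphatase, was at 0 to 4.32 CPM in Natural (median 0) and 3.50 to 20.4 CPM in IVF (median 11.5). Sept3, a septin of the cytoskeleton, was at 0 to 4.27 CPM in 8 Natural oocytes and at 21.3 CPM in Natural oocyte 6, and at 9.65 to 61.4 CPM in IVF (median 37.9). Its log2 ratio was 3.22 with all oocytes and 4.25 without Natural oocytes 6 and 9. The remaining 3 of the 12 were Khdc1c, a member of a multigene family, Gm17202, a long noncoding RNA, and H2-T10, an MHC class I family member that RefSeq lists as a transcribed pseudogene. The counting could have split reads of Khdc1c and H2-T10 among related genes. Khdc1c stood at 2.41 to 29.1 CPM in Natural against 99.1 to 390 CPM in IVF, Gm17202 stood at 0 to 1.84 against 5.18 to 20.8 CPM, and H2-T10 at 0 to 3.93 against 11.6 to 33.5 CPM. None of these 3 overlapped between the groups.

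Among the genes lower in IVF, Cdc5l showed the largest ratio, with a log2 ratio of −5.29. Cdc5l is a core subunit of the spliceosome and its product is required for cell division. Natural oocytes held between 29.6 and 45.4 CPM (39.4 ± 5.08, SD, n = 9). In IVF oocytes the level was 0 in 5 of 10 and at most 2.88 CPM (0.517 ± 0.901, n = 10), with 48 counts over all IVF oocytes against 4251 over all Natural oocytes. The highest IVF value again belonged to oocyte 7, and the log2 ratio without it was −5.71. Oocytes 6 and 9 did not differ from the other Natural oocytes for this gene.

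Bcat2, the mitochondrial aminotransferase that opens the breakdown of leucine, isoleucine and valine, was at 21.9 to 173 CPM in Natural (median 52.8) and at 0.784 to 10.9 CPM in IVF (median 3.81). The value of 173 CPM was that of Natural oocyte 9, and without oocytes 6 and 9 the log2 ratio was −3.13 rather than −3.63. Mtfr2, which promotes mitochondrial fission and respiration, was at 205 to 461 CPM in the 7 Natural oocytes other than 6 and 9, at 115 CPM in oocyte 6, and at 11.7 to 35.7 CPM in IVF (median 19.1). Natural oocyte 9, at 29.3 CPM, lay within the IVF range. Rassf4, a Ras-association protein, had 0 counts in 7 IVF oocytes and 1.45 to 42.8 CPM in Natural (median 7.08), with a log2 ratio of −4.15 that was −3.47 without oocytes 6 and 9. Lypd3, a membrane-anchored surface protein, was at 0 to 1.70 CPM in IVF (median 0.479) and 4.00 to 55.3 CPM in Natural (median 13.2). Its log2 ratio was −4.22, and −3.41 without oocytes 6 and 9, which held the highest values, 49.1 and 55.3 CPM. Bcat2, Rassf4 and Lypd3 did not overlap between the groups.

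Trim15, a ubiquitin ligase, was at 11.8 to 152 CPM in Natural (median 21.0) and 2.04 to 10.4 CPM in IVF (median 4.77), and its log2 ratio changed from −2.76 to −1.82 without oocytes 6 and 9. Susd4, a complement regulator, was at 6.62 to 42.4 CPM in Natural (median 14.9) and at 0 to 3.63 CPM in IVF (median 2.26). Caln1, a calcium-binding protein, was at 4.86 to 30.3 CPM in Natural (median 16.4) and 0.543 to 6.08 CPM in IVF (median 1.66). Synj2, a phosphoinositide phosphatase, was at 5.37 to 56.9 CPM in Natural (median 34.4) and at 0 to 16.0 CPM in IVF (median 3.09). Of these 4 genes, Trim15 and Susd4 did not overlap, and Caln1 and Synj2 did. The long noncoding RNAs Gm36480 and Gm29595 had no overlap and log2 ratios of −4.91 and −2.46, the latter −1.85 without oocytes 6 and 9, and the pseudogene Tmem181b-ps, whose reads may be shared with its copies, had a log2 ratio of −3.02.

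**Figure D2:**
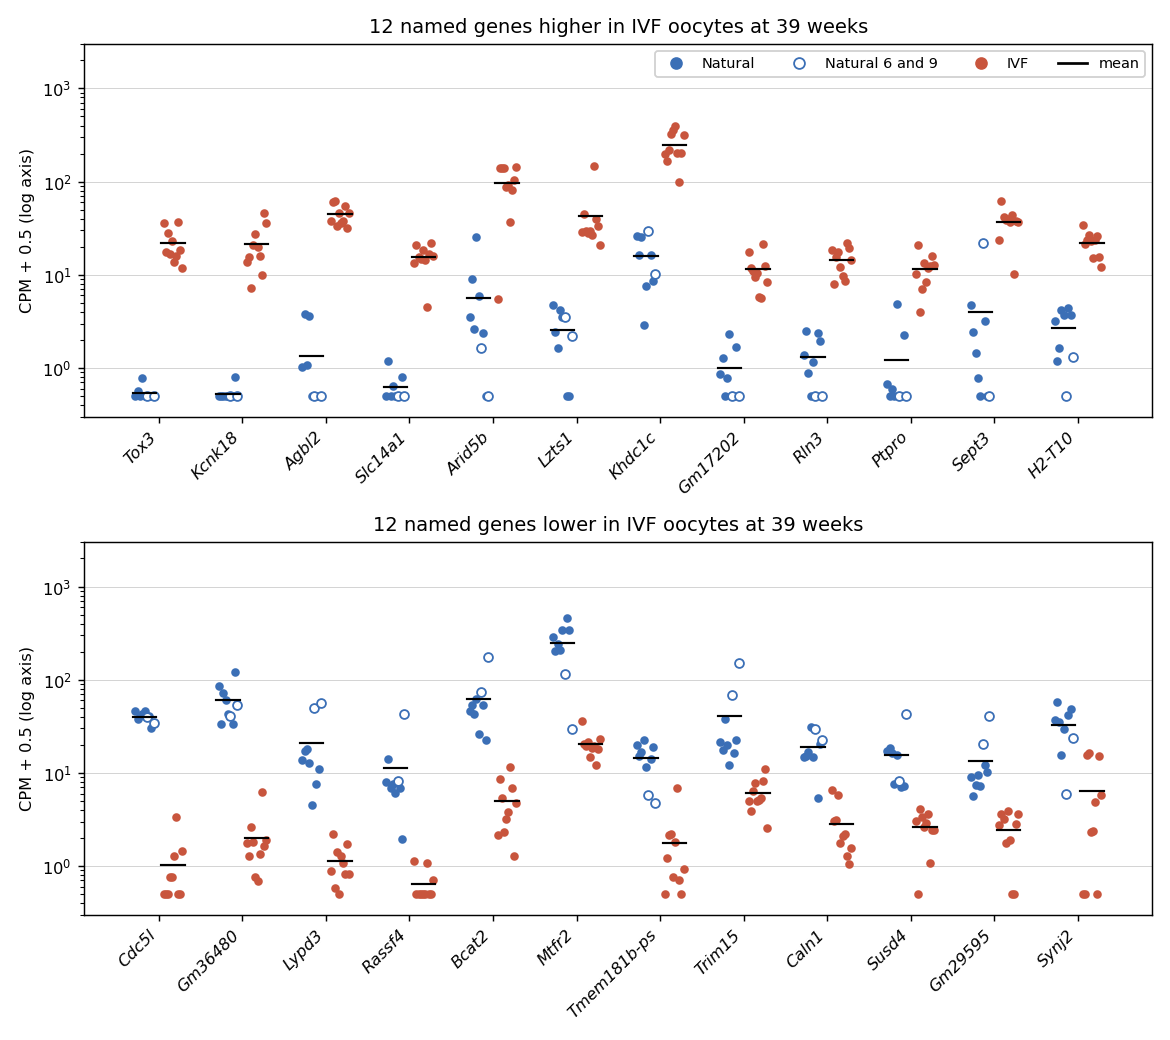
CPM plus 0.5 (log axis) of the 12 named genes higher in IVF (top) and the 12 lower in IVF (bottom), ordered by log2 ratio. Points are oocytes (9 Natural, 10 IVF), open circles are Natural oocytes 6 and 9, and black bars are group means. Tox3 and Kcnk18 lie at or near 0 CPM in all Natural oocytes, and Cdc5l at 2.88 CPM or less in all IVF oocytes.

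The same genes were then looked up in 12-week oocytes of other mice, a comparison chosen after the data were seen. The 12-week table holds 76 single oocytes whose library names fall into 10 sets, 5 Natural and 5 IVF, of 5 to 8 oocytes each. The labels do not say what a set is. The labels of IVF set 1 are in doubt, because its 8 oocytes are labelled IVF while a cumulus cell library that carries the same set name is labelled Natural, and 12-week results that changed without it are given both ways. Several genes that separated Natural from IVF at 39 weeks were present in whole sets and absent from other whole sets at 12 weeks, in both groups. Kcnk18 was at 10 CPM or more in all 8 oocytes of 2 Natural and of 3 IVF sets, and in 0 oocytes of the other 5 sets. Mean Kcnk18 levels were 23.7 and 36.0 CPM in the 2 Natural sets with the transcript and at most 0.369 CPM in the other 3. The 3 IVF sets with it held 27.1, 28.7 and 52.4 CPM, and the other 2 held 0.127 and 0.109 CPM. Arid5b behaved likewise, at 63.1 to 87.0 CPM in 3 Natural sets and 1.09 and 2.86 CPM in 2, and at 74.5 to 103 CPM in 3 IVF sets and 1.28 and 1.5 CPM in 2. Slc14a1 was at 20.7 and 37.6 CPM in 2 Natural sets and at 14.0 to 14.7 CPM in 3 IVF sets, and at 0.167 CPM or less in the rest.

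Cdc5l, near 0 in every 39-week IVF oocyte, was at 54.9, 71.8 and 78.3 CPM in 3 of the 12-week IVF sets and at 2.11 and 2.21 CPM in the other 2. Among the Natural sets it was at 65.8 and 81.4 CPM in 2 and at 0.215 to 1.98 CPM in 3. Khdc1c ranged from 15.3 to 729 CPM over the Natural sets and from 19.2 to 501 CPM over the IVF sets. Agbl2 was at 34.5 and 50.9 CPM in 2 Natural sets and at 3.36 CPM or less in the other 8 sets, the opposite order to that at 39 weeks. Bcat2 differed from these genes in that all 5 Natural sets held it, at 20.3 to 31.5 CPM, as did IVF set 1 at 23.4 CPM, while the other 4 IVF sets were at 1.03 to 2.74 CPM. Not all genes that separated the groups at 39 weeks split whole sets in both groups. Tox3 reached 10 CPM in 0, 4, 2, 0 and 0 oocytes of Natural sets 1 to 5. In IVF sets 1 to 5 it did so in 7, 8, 0, 5 and 4 oocytes. Lzts1 reached 10 CPM in 70 of 76 oocytes. Gm36480 did so in 68 of 76 oocytes and in 0 of IVF set 3.

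**Figure D3:**
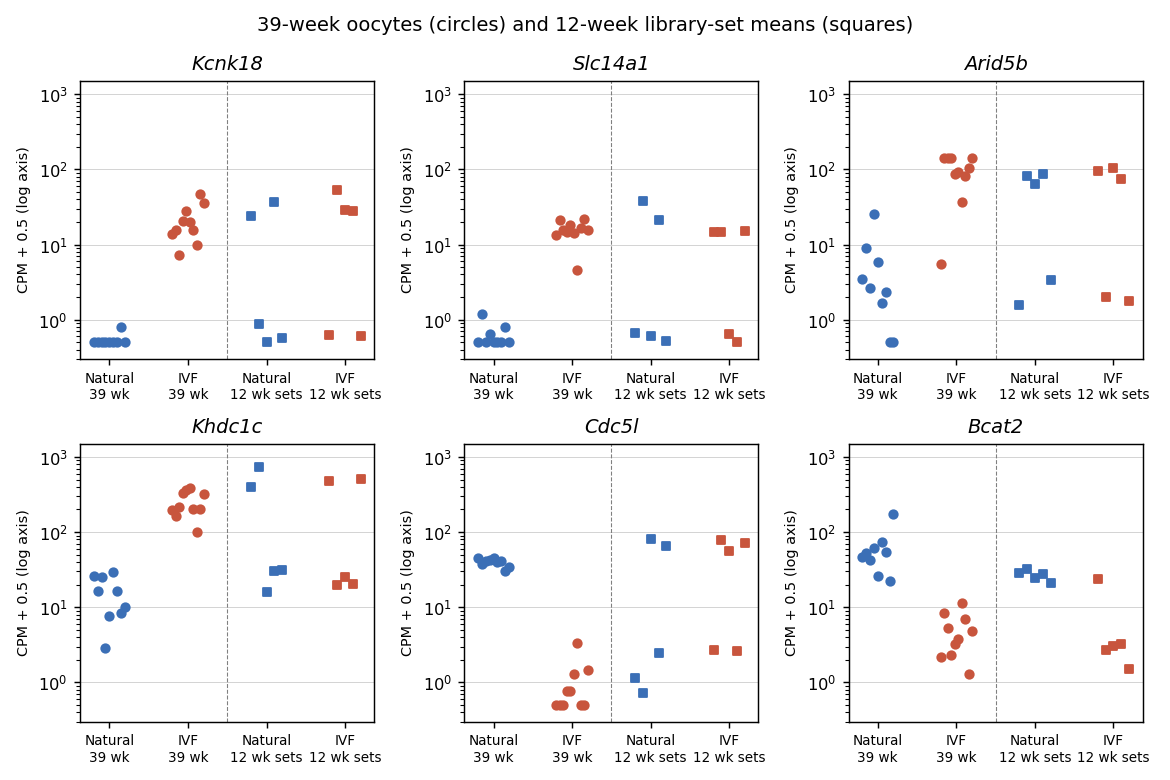
CPM plus 0.5 (log axis) of 6 named genes in single 39-week oocytes (circles, 9 Natural in blue and 10 IVF in red) and as means of 12-week library sets (squares, 5 Natural in blue and 5 IVF in red). Kcnk18, Slc14a1, Arid5b, Khdc1c and Cdc5l split the 12-week sets of both groups into high and low ones, and Bcat2 splits only the IVF sets.

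Over the 45 genes without overlap at 39 weeks, 42 passed the expression filter of the 12-week oocytes. The median share of the 12-week spread between oocytes of a group (log2 scale) that lay between library sets was 64.2% for these 42 genes and 18.1% for all 9347 genes kept at both ages. Set means spanned at least 4-fold among the Natural sets for 19 of the 42 genes and among the IVF sets for 23, against 3.37% and 6.53% of all genes. Both held for 18 of the 42 (42.9%), against 1.83% of all genes, and the count was again 18 without IVF set 1. These are descriptions of genes that were chosen for their separation at 39 weeks, and no test was run on them.

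With counts summed per set, edgeR's quasi-likelihood test with Benjamini-Hochberg adjustment called 3 of 14444 genes higher in IVF at 12 weeks (0.0208%) and 1 lower (0.00692%). The 4 genes were Rnase6, D430041D05Rik and Dbt, which were higher, and Fam199x, which was lower. At an unadjusted p under 0.05 there were 963 genes, and DESeq2 called 46. Leaving out IVF set 1 gave 8 calls in edgeR, leaving out Natural set 5 gave 4, and leaving out any other set gave 1 or 2. Of these, Dbt, a subunit of the enzyme complex that follows Bcat2 in the breakdown of branched-chain amino acids, was at 2.40 ± 2.35 CPM in Natural and 4.07 ± 4.10 CPM in IVF oocytes at 39 weeks (SD over oocytes). None of the 45 genes without overlap at 39 weeks was called at 12 weeks with all sets. Without IVF set 1, Bcat2 was among the 8 calls, with a log2 fold change of −3.88 (adjusted p = 3.13e-05 in edgeR), whereas with all sets it was −2.03 (adjusted p = 0.699). The omitted set is the IVF set with the most Bcat2, so the call rests on the label of that set. For the 22 higher genes, 15 had a 12-week log2 fold change of the same sign (68.2%), against 48.6% of all genes with a higher mean in IVF at 39 weeks. For the 22 tested of the 23 lower genes, 10 did (45.5%), against 45.2% of all genes with a lower mean. Without IVF set 1 the count for the higher genes was 10 of 22 (45.5%), against 45.7% of all genes with a higher mean. For the lower genes it was 11 of 22 (50%), against 43.5% of all genes with a lower mean. For Lypd3 the 12-week log2 fold change was −3.61 (p = 0.00108, adjusted p = 0.49 in edgeR) and for Cdc5l 0.45 (adjusted p = 0.975). For Tox3 it was 1.24 (adjusted p = 0.905 in edgeR), and 1.12 without IVF set 1. Lypd3 was near the floor at 12 weeks, and reached 10 CPM in only 2 of 76 oocytes, both of Natural set 2.

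By chromosome (RefSeq, GRCm38.p6), 7 of the 45 genes without overlap (15.6%) lay on chromosome 17, which carries 4.76% of the kept genes with a position. They were Tmem181c-ps, D17Wsu92e, Ppp1r10, H2-T-ps, H2-T10, Trim15 and Cdc5l. Tmem181c-ps and H2-T-ps reached 10 CPM in 0 oocytes of either group. H2-T-ps and H2-T10 may share reads, so they may not count as separate genes. Of the 165 genes with a position that kept the same order in at least 90% of pairs, 18 (10.9%) lay on chromosome 17. Of the 7 genes, Ppp1r10 (chr17:35916512-35932283), H2-T10 (chr17:36115871-36121444) and Trim15 (chr17:36860690-36867367) lie in or beside the major histocompatibility complex, and Cdc5l lies at chr17:45391887-45433707. Ppp1r10, a subunit that targets protein phosphatase 1 in the nucleus, was at 306 to 900 CPM in Natural (median 564) and 93.7 to 230 CPM in IVF (median 166). Chromosomes 7 and 8 held 5 of the 45 each (11.1%), with 7.23% and 5.59% of the kept genes. Lypd3 (chr7:24636570-24641118) lies close to Ethe1 (chr7:24587543-24608925), and Bcat2 (chr7:45568967-45589710) and Hps5 (chr7:46760466-46796065) lie farther along the same chromosome. These counts were chosen after the data were seen and were not tested.

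Mitochondrially encoded mRNAs were lower in IVF oocytes. Of 13 mitochondrial mRNAs in the table, 7 passed the expression filter, 6 of the 7 were at least 2-fold lower in IVF, and all 7 had a lower mean. The median log2 ratio was −1.55 over these 7, against 0.00 over all 10940 genes, and −1.67 without Natural oocytes 6 and 9. The other 6 mRNAs, among them COX2, COX3 and ND3, were at 0 to 2.97 CPM in every oocyte. Mitochondrial genes have near-identical copies in the nuclear genome, so their counts are uncertain.

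ND1, a subunit of complex I, was at 150 to 2369 CPM in Natural (median 674) and at 105 to 409 CPM in IVF (median 171), with a log2 ratio of −2.10. Natural oocyte 4, at 2369 CPM, set part of that ratio, which was −1.72 without it. ND5, also of complex I, was at 151 to 1175 CPM in Natural (median 429) and 62.6 to 195 CPM in IVF (median 128). COX1, the catalytic subunit of complex IV, was at 375 to 2694 CPM in Natural (median 1747) and 283 to 1171 CPM in IVF (median 646), and its log2 ratio was −1.29. CYTB, of complex III, had the smallest ratio of the 7, a log2 ratio of −0.88, at 712 to 2212 CPM in Natural (median 960) and 458 to 895 CPM in IVF (median 615). For each of these 4 genes the groups overlapped through Natural oocyte 9, joined by Natural oocyte 7 for ND1, ND5 and COX1.

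The summed share of all counts on the 13 mitochondrial genes was 0.481% ± 0.258 (SD) in Natural oocytes and 0.183% ± 0.0611 in IVF oocytes, a difference of −0.298 percentage points. Natural oocytes ranged from 0.234% to 1.00% (median 0.384%) and IVF oocytes from 0.114% to 0.336% (median 0.174%). The highest share of each group belonged to Natural oocyte 4 and IVF oocyte 7, the oocytes with the lowest totals and the most detected genes. At 12 weeks the share was 0.447% ± 0.148 in Natural and 0.334% ± 0.116 in IVF library sets, a difference of −0.113 percentage points (exact permutation test over 5 against 5 sets, two-sided, p = 0.23). Without IVF set 1 the difference was −0.113 percentage points (exact permutation test over 5 against 4 sets, two-sided, p = 0.262).

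**Figure D4:**
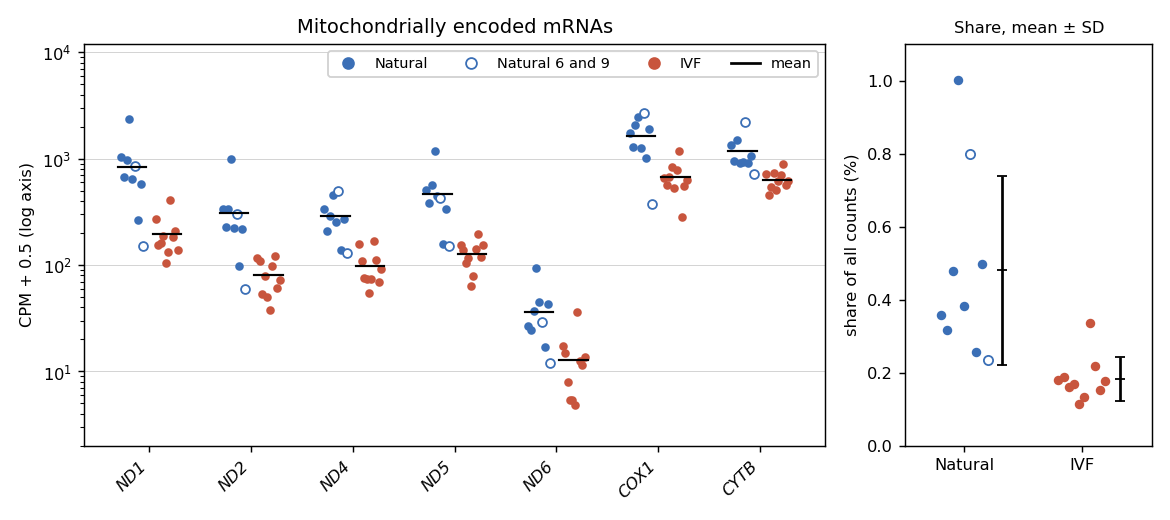
Left, CPM plus 0.5 (log axis) of the 7 mitochondrially encoded mRNAs that passed the expression filter in each 39-week oocyte, with black bars for group means. Right, the share of all counts on mitochondrial genes in each oocyte in percent, with mean ± SD, open circles marking Natural oocytes 6 and 9. The IVF mean of every mRNA is lower, and the share is 0.481% in Natural and 0.183% in IVF.

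Nuclear genes of mitochondria did not share this shift, and their counts are to be read against the 3.74% of all genes that were 2-fold higher and the 7.03% that were 2-fold lower. Of the 31 nuclear subunits of complex I that were kept, 0 were 2-fold higher and 2 were 2-fold lower (1 without Natural oocytes 6 and 9), with a median log2 ratio of −0.05. The 38 kept subunits of complexes II to V had 0 higher and 1 lower and a median of −0.04. For the 67 mitochondrial ribosomal proteins the median was 0.14, with 1 higher and 5 lower, or 1 and 2 without Natural oocytes 6 and 9. Genes that copy, transcribe and translate mitochondrial DNA had a median of 0.38 over 21 genes, or 0.22 without Natural oocytes 6 and 9. Without these 2 oocytes 0 genes of the list were past 2-fold, and with all oocytes 1 was higher and 2 were lower. The 2 lower were Polg, the mitochondrial DNA polymerase, at 0 to 36.1 CPM in Natural and 0 to 8.91 CPM in IVF, and Tfam, which packages mitochondrial DNA, at 0.139 to 26.1 CPM and 0 to 7.48 CPM. Without Natural oocytes 6 and 9 neither was past 2-fold, at log2 ratios of −0.90 and −0.54. Among 21 genes of mitochondrial dynamics, 2 were higher, Oma1 and Park2, and 2 were lower, Mfn2 and Lonp1. Oma1, a protease of the inner membrane, was at 0 to 20.1 CPM in Natural (median 16.0) and 14.1 to 50.7 CPM in IVF (median 29.4). Of the 4, only Park2 remained past 2-fold without Natural oocytes 6 and 9, at a log2 ratio of 1.01. Park2 was low, and reached 10 CPM in 3 of 10 IVF and 0 of 9 Natural oocytes.

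Branched-chain amino acid breakdown had a median log2 ratio of 0.06 over 12 genes, with 1 higher and 2 lower. Over all genes, 3.74% were 2-fold higher and 7.03% were 2-fold lower. Bcat2 and its cytosolic counterpart Bcat1 were lower, and Ivd, the dehydrogenase of leucine breakdown, was higher, at 2.62 to 18.9 CPM in Natural (median 8.50) and 15.5 to 71.6 CPM in IVF (median 31.2). Bcat1 was at 21.2 to 146 CPM in Natural and 2.62 to 38.0 CPM in IVF, and its log2 ratio of −1.24 was −0.64 without Natural oocytes 6 and 9.

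The study chose a set of oocyte genes on these samples, so their direction here is no independent evidence. Il17f, a cytokine, was at 0 to 15.2 CPM in Natural (median 3.49) and 13.1 to 81.7 CPM in IVF (median 36.5). Hps5, a subunit of a complex that builds lysosome-related organelles, was at 0.148 to 17.4 CPM in Natural (median 8.43) and 39.7 to 121 CPM in IVF (median 74.7), without overlap. Cdc42ep3, an effector of the GTPase Cdc42, was at 0 to 2.51 CPM in Natural (median 0.828) and 1.93 to 14.8 CPM in IVF (median 8.54). Rfxank, a subunit of the factor that drives MHC class II transcription, overlapped more, at 0 to 4.62 CPM in Natural (median 1.81) and 0.256 to 35.9 CPM in IVF (median 7.52). Their log2 ratios were 2.61, 3.03, 2.66 and 2.34.

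Ethe1, the sulfur dioxygenase of mitochondria, was at 7.37 to 29.3 CPM in Natural (median 14.9) and at 2.3 to 10.6 CPM in IVF (median 7.22), with a log2 ratio of −1.14. Without oocytes 6 and 9 that ratio was −0.99, just inside 2-fold. Aurkc, the Aurora kinase used in meiosis, was at 50.2 to 387 CPM in Natural (median 270) and at 55.1 to 130 CPM in IVF (median 106). The groups overlapped through Natural oocytes 6 and 9 alone, at 50.2 and 57.1 CPM, and the log2 ratio was −1.25 with them and −1.55 without them. At 12 weeks Aurkc was at 186 to 251 CPM in 3 Natural sets and at 48.4 and 56.2 CPM in the other 2, and at 157 CPM in IVF set 3 and 54.3 to 77.8 CPM in the other 4. ND3 had 15 counts over all Natural and 2 over all IVF oocytes and is given no ratio.

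The other Aurora kinases did not share this direction at 39 weeks. Aurka, at the spindle poles, was at 27.5 to 194 CPM in Natural (median 132) and 127 to 323 CPM in IVF (median 285), a log2 ratio of 1.08 that was 0.80 without Natural oocytes 6 and 9. Aurkb was at 17.0 to 59.8 CPM in Natural and 25.1 to 60.7 CPM in IVF. Of all 22 Aurora kinase and spindle checkpoint genes, 2 were higher, Aurka and the spindle motor Kif11, and 1 was lower, Aurkc, against 3.74% and 7.03% of all genes. Without Natural oocytes 6 and 9 none of the 22 was 2-fold higher, with Kif11 at a log2 ratio of 0.67, and Aurkc alone was lower. Cohesin subunits (10 kept), which hold sister chromatids together, and genes of meiotic arrest and resumption (19 kept) had 0 genes past 2-fold in either direction.

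Few genes of the maternal store were past 2-fold. Over all genes, 3.74% were 2-fold higher and 7.03% were 2-fold lower, and lists this small would hold few such genes at those shares. Of 18 genes of maternal mRNA storage and decay, of 8 genes of the subcortical maternal complex and of 11 egg coat and growth factor genes, 0 differed 2-fold with all oocytes. The median log2 ratios of these lists, in this order, were −0.005, −0.05 and 0.43. They were −0.12, −0.28 and 0.11 without Natural oocytes 6 and 9. In that setting 13 of 19, 7 of 8 and 3 of 11 genes had a lower mean in IVF. There, 1 of these genes, Zar1, was past 2-fold. It was at 0.963 to 5692 CPM in Natural (median 3446) and 707 to 2527 CPM in IVF (median 1379), and its log2 ratio was −0.99 with all oocytes and −1.38 without oocytes 6 and 9. The next 2 lists are read against the 3.74% of all genes that were 2-fold higher and the 7.03% that were 2-fold lower. Among 14 DNA methylation genes, the maintenance methyltransferase Dnmt1 and the de novo methyltransferase Dnmt3b were 2-fold higher in IVF. Without Natural oocytes 6 and 9, 0 of the 14 were past 2-fold. Dnmt1 was at 8.16 to 563 CPM in Natural (median 314) and 262 to 1182 CPM in IVF (median 622), and its log2 ratio was 1.09 with all oocytes and 0.73 without Natural oocytes 6 and 9. The ratio of Dnmt3b changed in the same way, from 1.16 to 0.80. Sohlh2, a transcription factor of early oocytes, was the only one of 8 kept oocyte transcription factors past 2-fold, at 0 to 13.1 CPM in Natural and 7.78 to 28.2 CPM in IVF.

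Several metabolic and stress lists were also read, each against the 3.74% of all genes that were 2-fold higher and the 7.03% that were 2-fold lower. In cholesterol synthesis and uptake, Msmo1 and Sc5d, enzymes of late sterol synthesis, were the 2 of 20 genes past 2-fold, both higher. Msmo1 was at 0.555 to 50.4 CPM in Natural (median 25.6) and 43.4 to 110 CPM in IVF (median 71.7), and Sc5d at 4.44 to 72.4 CPM and 60.7 to 108 CPM, with log2 ratios of 1.15 and 0.69 without Natural oocytes 6 and 9, where the list had 2 genes higher and 2 lower. Of 17 antioxidant genes, 2 were lower, Prdx2 and Txn2, and both ratios rested on Natural oocytes 6 and 9, moving from −1.32 to −0.29 and from −1.15 to −0.36 without them. Among 13 immune and inflammation genes 4 were higher (Il17f, Rfxank, Ccl2 and Irf1) and 3 lower (H2-D1, Ddx58 and Rfx5), or 4 and 1 without Natural oocytes 6 and 9. Ccl2 reached 10 CPM in 0 oocytes of either group. The MHC class I genes H2-D1 and H2-K1, whose reads may be shared with related genes, had log2 ratios of −1.5 and 0.96. Glycolysis (15 kept) had 1 gene lower and 0 higher, the proteasome (29 kept) 1 lower and 0 higher, chaperones (19 kept) 1 higher, Hspb1, and cytosolic ribosomal proteins (78 kept) 2 lower. Genes of lysosome-related organelles and Cdc42 effectors (16 kept) had 2 higher, Hps5 and Cdc42ep3, and 3 lower, and sulfide oxidation and glycine cleavage (3 kept) 1 lower, Ethe1. The Bcl2 family (10 kept) had 1 gene lower, DNA repair (30 kept) 3 higher, Ercc3, Atr and Mre11a, and 3 lower, Ercc4, Ercc6 and Rad52, and the 12 kept imprinted genes 1 higher, Kcnq1ot1. Most of these repair genes were near the floor. Ercc3 and Mre11a each reached 10 CPM in 1 IVF and 0 Natural oocytes, and Ercc4 and Rad52 each in 0 IVF and 1 Natural. Atr did so in 5 IVF and 0 Natural oocytes, and Ercc6 in 1 IVF and 4 Natural. Without Natural oocytes 6 and 9, 1 gene of DNA repair was higher and 0 lower, 0 genes of glycolysis, of the Bcl2 family and of sulfide oxidation and glycine cleavage were past 2-fold, 1 cytosolic ribosomal protein and 2 genes of lysosome-related organelles were lower, and the imprinted genes had 1 higher and 1 lower. Kcnq1ot1, an imprinted long noncoding RNA, was at 63.8 CPM in IVF oocyte 7 and at most 9.89 CPM in the other IVF oocytes, and its log2 ratio was −0.62 without that oocyte instead of 1.35.

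**Figure D5:**
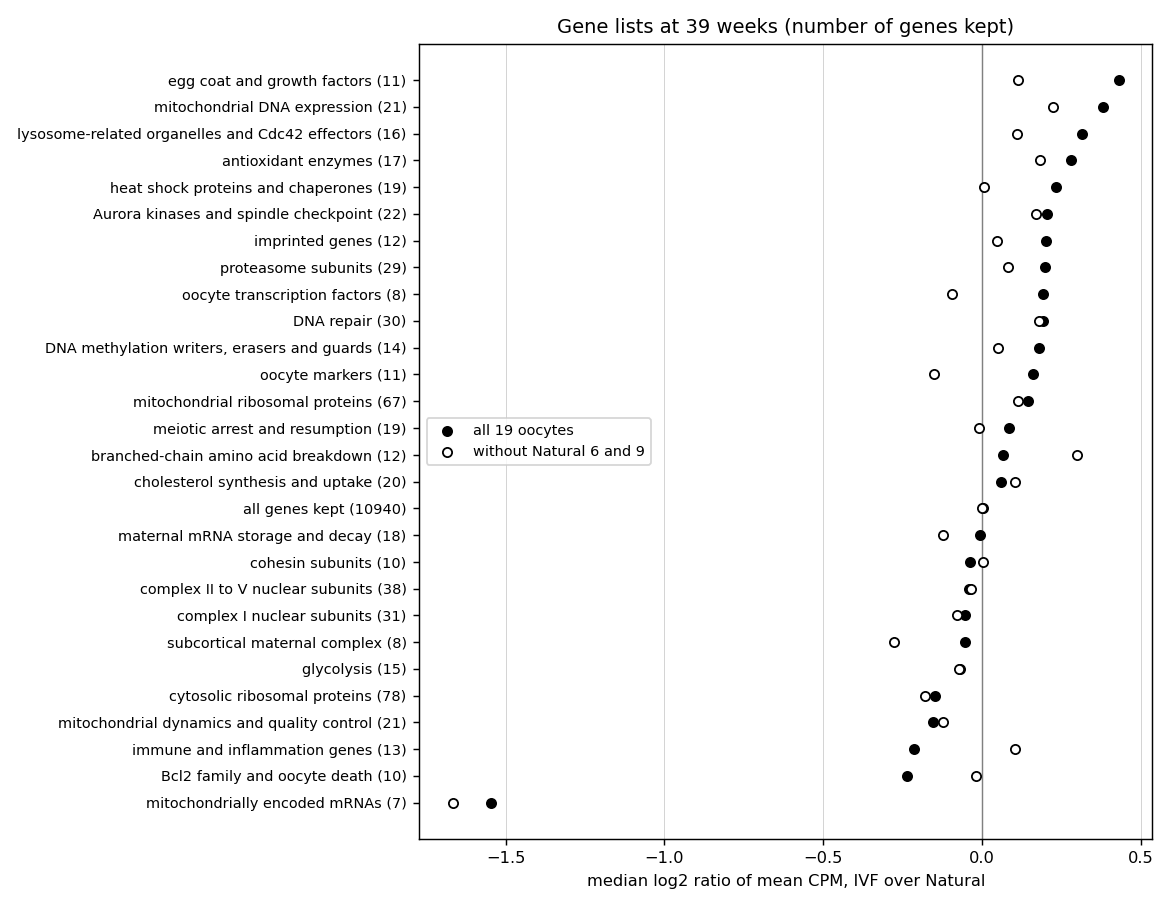
Median log2 ratio of mean CPM, IVF over Natural, for 27 gene lists and for all genes kept, with the number of genes kept in brackets. Filled points use all 19 oocytes and open points leave out Natural oocytes 6 and 9. With all oocytes the mitochondrially encoded mRNAs lie at −1.55, and the other lists between −0.23 and 0.43. With Natural oocytes 6 and 9 left out they lie at −1.67, and the other lists between −0.28 and 0.30.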

How the data were processed

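Poly-adenylated RNA of single denuded oocytes was reverse transcribed and amplified by a modified SMART-Seq protocol, and Nextera XT libraries, which do not mark strand, were sequenced on an Illumina NextSeq. The authors aligned reads to mm10 and deposited raw read counts per gene. The submitters' processing notes name Trimmomatic 0.32, STAR 2.3.0e and featureCounts 1.5.0, and the methods of the study name another trimmer. Groups came from the sample labels, and 0 columns of the table remained without a sample.

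Here, counts of the 35976 listed genes were filtered with filterByExpr at its defaults and scaled by TMM in edgeR 4.0.16 (R 4.3.3). CPM were averaged over oocytes, 0.5 was added to both means, and the log2 ratio was taken. Wherever oocytes were left out, the filter and the scaling were run again on the remaining oocytes. A gene was counted as higher or lower from 2-fold. The text names the genes that the study names for oocytes, Zp3, Gdf9 and Bmp15, and per direction the 12 genes of the largest ratio with at least 10 CPM in the higher group and the same order in at least 90% of oocyte pairs. List members past 2-fold may also be named, and any gene outside this rule was chosen after its values were seen. The members and lists were chosen with earlier results of these data known. Because no label names a donor, the 39-week groups were not tested and n counts oocytes. For 12-week oocytes counts were summed per library set, read from the library names, and tested with edgeR's quasi-likelihood test at an adjusted p of 0.05, with DESeq2 1.42.0 as an alternative. P-values then measure only the spread between sets. Intervals of summed counts are 95% exact intervals and cover counting error only, since reads carry no molecular identifiers. The procedure was tested on simulated counts.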

Additional observations from a re-analysis of the deposited data

Results flagged for a closer look

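Of 80 groups of values compared oocyte by oocyte, 24 held an outlying oocyte by Dixon's 95% criterion. Its gap to the nearest other oocyte was large for the range of its group. The criterion's rate of about 1 group in 20 holds for independent groups of normally distributed values. These groups share oocytes and many hold skewed values, so the 24 cannot be set against that rate. Groups of near-0 values make up several of the 24. IVF oocyte 7, the shallowest library, was extreme for genes detected (23116), for the mitochondrial share of counts (0.336%), and for Lzts1 (147 CPM), Slc14a1 (4.03 CPM), Cdc5l (2.88 CPM) and Tmem181b-ps (6.33 CPM).

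Natural oocyte 9, which had low Gdf9, Mos and Zar1, was the highest of its group for Bcat2 (173 CPM), Trim15 (152 CPM), Rassf4 (42.8 CPM), Susd4 (42.4 CPM) and Gm29595 (40.1 CPM). Natural oocyte 6 was the highest for Sept3 (21.3 CPM) and Ethe1 (29.3 CPM). The next highest Natural values of Rassf4, Susd4 and Ethe1 belonged to other oocytes, at 13.5, 17.8 and 17.4 CPM.

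Natural oocyte 4, the shallowest Natural library, was the highest for ND1 (2369 CPM), Arid5b (24.6 CPM) and Tox3 (0.283 CPM). Among the remaining Natural oocytes, oocyte 8 was the highest for Kcnk18 (0.291 CPM) and ND3 (1.02 CPM), oocyte 2 for Slc14a1 (0.696 CPM) and oocyte 5 for Ptpro (4.32 CPM). Among IVF oocytes, oocyte 8 was the highest for Il17f (81.7 CPM) and Gm36480 (5.66 CPM), oocyte 1 for Mtfr2 (35.7 CPM) and oocyte 4 for ND3 (0.132 CPM).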

How the results depend on the processing

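The number of genes past 2-fold depended on the processing more than the direction of any named gene, and neither these counts nor the ratios of the 36 genes followed through every setting reversed. Kcnq1ot1, which was not among the 36, changed sign without IVF oocyte 7, and the median of the Bcl2 family went from −0.23 to 0.19 without a filter and 0.24 at a mean of at least 10 CPM. Against 409 genes higher and 769 lower, thinning to the lowest total gave 192 and 442, ratios of summed counts 727 and 1251, no filter 1084 and 1991, and a mean of at least 10 CPM 164 and 319. Medians over oocytes gave 703 higher and 734 lower, so that 48.9% of the genes past 2-fold were higher instead of 34.7%. Leaving out single oocytes gave 370 to 515 higher and 602 to 973 lower. Genes without overlap numbered 42 lower without Natural oocytes 6 and 9, and 46 higher and 71 lower without Natural oocytes 4, 6 and 9 and IVF oocyte 7, where fewer oocytes make overlap rarer. These 2 omissions were chosen after the data were seen. The log2 ratios of genes near 0 in one group moved with the pseudocount, from 4.43 to 7.27 for Tox3 and from 4.40 to 7.30 for Kcnk18. At 12 weeks the 4 calls of edgeR became 46 with DESeq2, 19 without the filter and 1 to 8 when single sets were left out, where Bcat2 was called without IVF set 1, a set singled out for its labels after the data were seen. The cause was not tested. Over the group totals, 3 and 2 counts in Natural leave the ratios of Tox3 and Kcnk18 with lower bounds of 298 and 296 from counting error, and depth thus limits how well their size is known. No paired analysis was possible, because no 39-week label names a female, litter or day. Nor does any label say that a number recurring in the names of oocytes or 12-week sets of both groups marks a shared female, litter or day. Such numbers recur within a group as well.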
